A study of Rattus norvegicus with 16 samples.

Results

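The genes described here encode proteins of coagulation, fibrinolysis and complement, most of them secreted by the liver. They were chosen by gene name, as the array gives it. All 42 were on the array, out of 26269 gene names, and were read by 51 of its 30367 probes. The cells were rat hepatoma H35 cells, a liver tumor line, in which *Pdrg1* (p53 and DNA damage-regulated gene 1) was silenced with shRNA plasmids that also carry resistance to the antibiotic G418. CN-10 is a stable clone carrying a negative control sequence, 4-18 is a stable clone carrying shRNA4, 3-44 is a stable clone carrying shRNA3, and shRNA3T is a pool of cells transfected with the shRNA3 plasmid. Cells of every group received a plasmid and 1.8 mg/ml G418 for 2 weeks, starting 48 hours after transfection, and the stable clones were then kept in 4 mg/ml G418 for 2 more weeks. Each group was measured on 4 single-color Agilent arrays, described in the labels as biological replicates, so that there were 16 arrays in all. Each stable group is 1 clone, and the pool had no pool of control cells beside it, so that a difference from CN-10 includes whatever sets 1 clone, or a pool, apart from another clone. The question behind each comparison was how expression differs when *Pdrg1* is silenced. For *Pdrg1* itself the log2 difference from CN-10 was -0.77 (4-18), -0.99 (3-44) and -0.85 (shRNA3T), without overlap with CN-10 (two-sided exact permutation p = 0.0286 each), and the adjusted p over all probes was 0.129, 0.105 and 0.143 (limma). Replicate 1 of 4-18 read 11.57 while the other 3 arrays read 13.25 to 13.34, and without it the difference in that clone was -0.33 (adjusted p = 0.349). Without that array 3-44 stayed at -0.99 (adjusted p = 0.0086) and shRNA3T at -0.85 (adjusted p = 0.0149). Replicate 1 was the lowest array of *Pdrg1* in every group, and without the first replicate of all 4 groups the differences were -0.41 (4-18), -0.82 (3-44) and -0.79 (shRNA3T), with an adjusted p of 0.00647, 0.000306 and 0.000212.

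Blood clots through a cascade of liver-made proteases. Tissue factor starts it, the factors activate each other down to thrombin, and thrombin cuts fibrinogen into fibrin. Plasmin, made from plasminogen, dissolves the clot, and protein C and its cofactor protein S restrain the cascade. Complement is a second cascade, in which C1 or the mannose-binding lectin route cleaves C2 and C4, C3 is then split, and C5 to C9 assemble a pore in a target membrane. Regulators such as C4b-binding protein, factor I and CD59 keep it in check. Hepatocytes secrete most of these proteins, many of them as part of the acute phase response, and hepatoma lines retain part of this program.

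The genes of the 3 fibrinogen chains lie close together on chromosome 2, and *Fga* and *C5* were the members called in all 3 silenced groups. The promoters of the fibrinogen genes and of *C5* are therefore shown first, as the 250 bases before the start of the gene in RefSeq (GRCr8 build), 5′ to 3′ on the strand of the gene. Capitals mark exact matches to the letter patterns searched (GTTAAT for HNF1, TTGCNNAA for C/EBP and TTCNNNGAA for STAT3, on either strand).
*Fga*, chr2:170671919-170672168, plus strand: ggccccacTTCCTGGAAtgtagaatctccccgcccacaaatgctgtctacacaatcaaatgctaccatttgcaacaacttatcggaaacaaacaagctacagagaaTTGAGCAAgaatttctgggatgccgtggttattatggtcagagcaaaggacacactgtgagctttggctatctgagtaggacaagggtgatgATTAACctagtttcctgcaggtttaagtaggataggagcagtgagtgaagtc
*Fgb*, chr2:170700876-170701125, minus strand: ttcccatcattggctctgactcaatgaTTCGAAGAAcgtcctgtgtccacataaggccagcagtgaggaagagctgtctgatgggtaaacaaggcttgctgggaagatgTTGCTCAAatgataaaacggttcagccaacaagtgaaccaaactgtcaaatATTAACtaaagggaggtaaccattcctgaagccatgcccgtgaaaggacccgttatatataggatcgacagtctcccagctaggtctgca
*Fgg*, chr2:170652833-170653082, plus strand: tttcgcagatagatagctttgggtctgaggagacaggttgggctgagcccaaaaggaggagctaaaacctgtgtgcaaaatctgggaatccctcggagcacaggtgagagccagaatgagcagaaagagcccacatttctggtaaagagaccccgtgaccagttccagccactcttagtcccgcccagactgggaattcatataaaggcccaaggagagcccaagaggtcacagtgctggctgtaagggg
*C5*, chr3:38759469-38759718, minus strand: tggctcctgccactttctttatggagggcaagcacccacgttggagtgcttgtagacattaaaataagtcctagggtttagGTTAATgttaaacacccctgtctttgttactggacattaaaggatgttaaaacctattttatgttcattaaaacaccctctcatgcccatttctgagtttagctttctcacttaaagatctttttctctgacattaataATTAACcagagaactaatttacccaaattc
The *Fga* window held 1 match to each of the 3 patterns, the HNF1 letters lying from 52 to 47 bases before the start. In *Fgb* there was also 1 match to each, the HNF1 letters lying from 90 to 85 bases before the start. The *C5* window held the HNF1 letters at 2 places, from 169 to 164 and from 30 to 25 bases before the start. None of the patterns searched was found in the *Fgg* window.

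Promoters could be matched for 31 of the 42 members, by accession or symbol, and were searched from 250 bases before to 50 bases after the start. HNF1 and C/EBP proteins are liver transcription factors, and STAT3 carries the interleukin-6 signal of the acute phase. The HNF1 letters GTTAAT were present in 11 of the 31 (35.5%), against 7.45% of all 33469 promoters in the table. The C/EBP letters TTGCNNAA, whose reverse complement TTNNGCAA finds the same sites, were present in 11 of the 31 (35.5%), against 10.6% of all promoters. Those of STAT3, TTCNNNGAA, were present in 7 of the 31 (22.6%), against 8.87%. The CREB letters TGACG were present in 5 of the 31 (16.1%), against 21.2%, and the HNF4 letters CAAAGTCC in 0 of the 31, against 1.40%. Matches of different patterns may overlap, and a match describes letters only.

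Intensities are given as normalized log2 values, on which a difference of 1 is a 2-fold change. A gene was called when its group mean differed by at least 2-fold with an adjusted p under 0.05 (limma, Benjamini-Hochberg over all probes). In 4-18, 7 of the 42 members were called against CN-10, with 2 higher (background 2.62%) and 5 lower (background 3.54%), or 16.7%, while 6.15% of all gene names were called. The split in 4-18 depended on the scaling, with 14 higher and 4 lower when the background-corrected signal was scaled by its 75th percentile, which moved the median of all probes by 0.86, 3 higher and 10 lower with the processed signal scaled that way, and 1 higher and 10 lower with the deposited values as given. Replicate 4 of 4-18 stood apart in its background-corrected signal, whose 10th percentile was 8.64 on the log2 scale against 5.98 to 6.15 on the other 15 arrays. Before background correction the 10th percentile of its spot intensity was 61.7, within the 52.3 to 65.11 of the others. Without that array the 75th percentile scaling gave 1 higher and 4 lower, and the deposited values as given 1 higher and 15 lower. In 3-44, 6 members were called, with 4 higher (background 0.685%) and 2 lower (background 0.788%), or 14.3%, against 1.47% of all gene names. In shRNA3T, 10 members were called, with 9 higher (background 1.20%) and 1 lower (background 1.19%), or 23.8%, against 2.39%. An adjusted p under 0.05 at any fold was reached by 18 members in 4-18 (background 24.1%), 15 in 3-44 (8.14%) and 22 in shRNA3T (12.2%). The median log2 difference of the members was -0.05 in 4-18, 0.26 in 3-44 and 0.31 in shRNA3T, while the median over all gene names was 0.00, -0.01 and -0.01. The arrays of silenced group and CN-10 did not overlap for 19 members in 4-18 (background 23.5%), 19 in 3-44 (16.3%) and 23 in shRNA3T (22.2%).

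**Figure D1:**
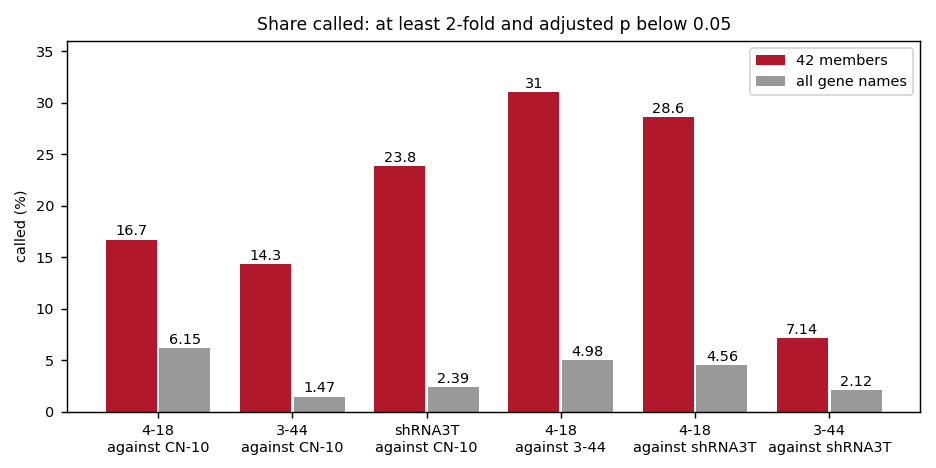
Bars give the percentage of the 42 members (red) and of all gene names (gray) called in each of the 6 comparisons between groups, where called means at least 2-fold with an adjusted p under 0.05. The share of members was above that of all gene names in each comparison, from 7.14% in 3-44 against shRNA3T (3 of 42) to 13 of 42 in 4-18 against 3-44.

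Calls were rarer among dim probes, and the shares are therefore also given for the brighter ones. A probe well above background is one that the scanner software flagged as such, and 21 members were so on all 16 arrays, 18 on some and 3 on none. Of the 42 members, 28 had a mean intensity above the median of all gene names. All 7 calls in 4-18 and all 6 in 3-44 fell among these 28 (25.0% and 21.4%), against 11.6% and 2.88% of all gene names above the median. In shRNA3T, 9 of the 28 were called (32.1%), against 4.68%.

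Of the 42, 16 were called in at least 1 comparison with CN-10 (background 7.99%), and 0 were called in all 3 in the same direction (background 0.320%). *Fga* and *C5* were called in all 3, each with opposite directions between groups. *F10*, *C4bpa* and *Cd59* were called in 2 of the 3, and 11 members in 1. The 3 comparisons use the same CN-10 arrays and are thus not independent of each other. Apart from calls in 4-18, some were lost under another scaling. By the 75th percentile these were *F10* (1.20, adjusted p = 0.115) and *C4bpb* (1.17, adjusted p = 0.0932) in shRNA3T, and the processed signal scaled that way ended that of *Fgb* (0.87). With the deposited values as given they were *Fga* (1.56, adjusted p = 0.152) and *C4bpa* (1.59, adjusted p = 0.178) in 3-44, and *F10* (1.22), *C4bpb* (1.17), *Cd59* (1.03) and *Vtn* (1.76) in shRNA3T, with an adjusted p of 0.203, 0.198, 0.182 and 0.0588. Without 4-18 replicate 4, the 75th percentile scaling of the background-corrected signal and the deposited values as given again called these members in these groups, except *Cd59* (adjusted p = 0.054). The scanner software's processed signal, scaled by its 75th percentile, also gave further calls against CN-10. In 4-18 these were *Proc* (-1.12), *Masp1* (-1.18), *Masp2* (1.30), *Mbl2* (-1.26), *C8b* (-2.16) and *C9* (-1.04), in 3-44 *Masp2* (1.72) and *C9* (1.02), and in shRNA3T *Cpb2* (-1.53), *C2* (1.05), *Masp2* (1.996) and *C8b* (-1.43). Several differences were larger on that signal, at 2.60 in 3-44 and 2.97 in shRNA3T for *C4bpa*, 2.004 in shRNA3T for *C4bpb*, 4.89 in shRNA3T for *Vtn* and -1.84 in 3-44 for *F3*. *Vtn* was not well above background on any CN-10 array, nor *C8b* on any 4-18 array. The size of 4.89 for *Vtn* and of -2.16 for *C8b* is therefore uncertain.

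**Figure D2:**
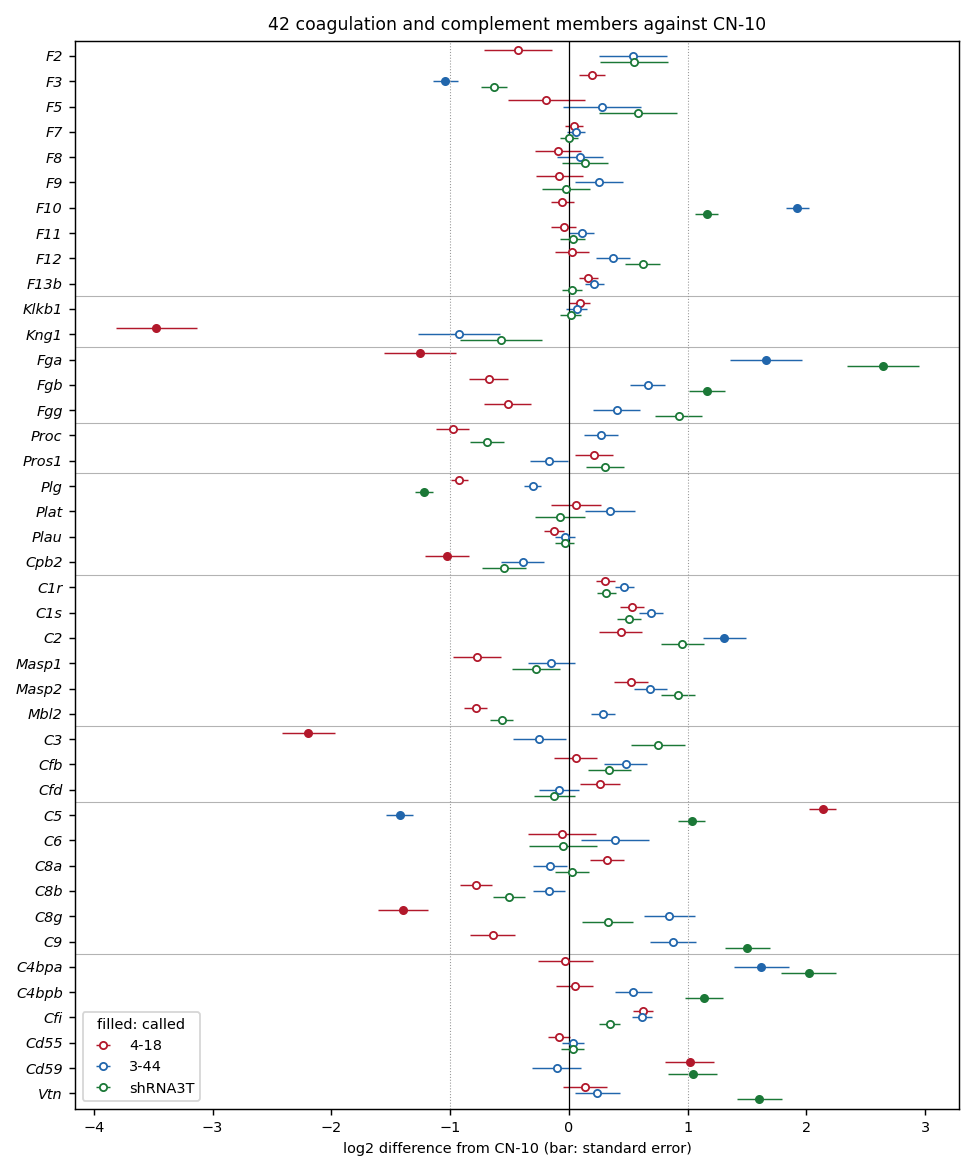
Points give the log2 difference of each member from CN-10 in 4-18 (red), 3-44 (blue) and shRNA3T (green), with the standard error of limma as a bar, filled where the gene was called. Dotted lines mark 2-fold, and gray lines separate groups of genes by role. *Kng1* and *C3* lie farthest to the left in 4-18 (-3.47 and -2.19), and *Fga* farthest to the right in shRNA3T (2.65).

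Among the 10 coagulation factors, *F10* and *F3* were called. *F10* encodes factor X, whose active form turns prothrombin into thrombin. Its log2 intensity was 6.56, 6.56, 6.66 and 6.62 on the CN-10 arrays, 8.78, 8.57, 8.26 and 8.48 in 3-44, and 7.84, 7.75, 7.74 and 7.71 in shRNA3T. In 4-18 it was 6.57, 6.60, 6.34 and 6.66, and not well above background on any of these arrays. All arrays of 3-44 and of shRNA3T therefore lay above all those of CN-10 and of 4-18. *F10* rose 3.79-fold in 3-44 (log2 1.92 ± 0.10 SE, adjusted p = 1.18e-08) and 2.24-fold in shRNA3T (1.16 ± 0.10, adjusted p = 1.97e-06). In 3-44 it was at least 3.75-fold higher than in 4-18. The value in 4-18 was -0.05 and turned to 1.05 with the background-corrected signal scaled by its 75th percentile, or 0.49 without 4-18 replicate 4, and to -0.68 (adjusted p = 0.048) with the processed signal. On the processed signal the rises were larger, at 3.35 in 3-44 and 2.25 in shRNA3T on the log2 scale.

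*F3* encodes tissue factor, the membrane protein that starts coagulation. It read 8.002, 8.05, 8.36 and 8.14 in CN-10, 8.41, 8.19, 8.45 and 8.28 in 4-18, 7.29, 7.09, 7.16 and 6.84 in 3-44, and 7.37, 7.59, 7.58 and 7.49 in shRNA3T. Both groups that carry shRNA3 lay below all arrays of CN-10 and 4-18. *F3* fell 2.06-fold in 3-44 (log2 -1.04 ± 0.11, adjusted p = 2.49e-05), and in shRNA3T its value was -0.63 ± 0.11 (adjusted p = 0.00101), short of 2-fold. The call in 3-44 lay close to the 2-fold limit and was lost without CN-10 replicate 3 (-0.97) or without 3-44 replicate 4 (-0.95).

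The other 8 factors were not called in any comparison with CN-10. *F2*, the prothrombin gene, was at 16.27 ± 0.27 (SD, n = 4) for CN-10, 15.84 ± 0.81 for 4-18, 16.81 ± 0.15 for 3-44, and 16.82 ± 0.16 for shRNA3T. *F5*, which encodes the cofactor of factor X, ranged between 11.90 ± 0.80 in 4-18 and 12.68 ± 0.41 in shRNA3T, within the spread of the arrays. *F12* encodes the factor that starts the contact route, and reached 7.45 ± 0.08 in shRNA3T against 6.83 ± 0.15 in CN-10 (0.62 ± 0.15, adjusted p = 0.0105), short of 2-fold. *F8*, the cofactor of factor IX, stayed between 7.49 ± 0.53 and 7.72 ± 0.17 in the 4 groups. *F7*, *F9*, *F11* and *F13b* were at the limit of detection, with *F7* and *F13b* well above background on 1 of 16 arrays. *F9* read 7.45 on 3-44 replicate 4 and 6.23 to 6.35 on the other 3 arrays of that clone.

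In the contact system, *Klkb1*, which encodes prekallikrein, stayed below the well-above-background mark throughout. *Kng1*, a kininogen gene placed here by the array's name for it, had the largest difference from CN-10 of any member. It read 12.29, 12.05, 12.10 and 12.11 in CN-10, 8.98, 8.44, 8.63 and 8.61 in 4-18, 11.13, 11.41, 11.24 and 11.06 in 3-44, and 10.04, 11.85, 12.20 and 12.17 in shRNA3T. All 4-18 arrays were thus below all the others, and 1 array of shRNA3T lay well below the other 3. *Kng1* fell 11.1-fold in 4-18 (log2 -3.47 ± 0.34, adjusted p = 3.38e-06). The values in 3-44 (-0.93 ± 0.34, adjusted p = 0.133) and shRNA3T (-0.57 ± 0.34, adjusted p = 0.37) did not pass the test. Without shRNA3T replicate 1, which raises the shared spread, the difference was -0.07 in shRNA3T, and in 3-44 it was -0.93 with an adjusted p of 0.000254.

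Kininogens carry the bradykinin sequence, and the rat has several closely related kininogen genes. The accession of the *Kng1* probe belongs to the gene that RefSeq now names *Kng2*. The names of the array were kept here for all 3 kininogen probes, and the present names of the others were not looked up. The probes are printed here because their likeness bears on which gene each one reads.
*Kng1* probe, rn4 chr11:80127589-80127648, plus strand: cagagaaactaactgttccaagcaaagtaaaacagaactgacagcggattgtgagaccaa
*Kng1l1* probe, rn4 chr11:80013720-80013779, minus strand: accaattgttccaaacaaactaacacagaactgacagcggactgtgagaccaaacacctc
*Kng2* probe, rn4 chr11:80172931-80172990, plus strand: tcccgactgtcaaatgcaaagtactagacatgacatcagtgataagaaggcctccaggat
Placed at their best ungapped overlap, the *Kng1* and *Kng1l1* probes shared 47 of 53 bases (88.7%), with 17 bases as the longest identical run. The *Kng2* probe shared 26 of 54 bases with the *Kng1* probe. All 3 probes were lower in 4-18. *Kng2* fell at least 3.6-fold and *Kng1l1* at least 5.52-fold, neither being well above background on any 4-18 array. In shRNA3T, by contrast, *Kng2* rose by 1.20 (adjusted p = 0.000268) and *Kng1l1* by 1.88 (adjusted p = 0.00017) on the log2 scale. How far the probes read each other's transcripts was not tested.

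Group means of all 3 fibrinogen chains lay below CN-10 in 4-18 and above it in both shRNA3 groups, and *Fga* and *Fgb* were called. *Fga* encodes the Aα chain, which loses its fibrinopeptide when thrombin cuts it. It read 9.27, 10.08, 10.19 and 10.38 in CN-10, 8.41, 9.02, 8.48 and 9.02 in 4-18, 10.94, 12.23, 12.10 and 11.29 in 3-44, and 12.39, 12.30, 12.74 and 13.08 in shRNA3T. The 4 groups did not overlap with each other. *Fga* fell 2.38-fold in 4-18 (-1.25 ± 0.30, adjusted p = 0.00683), and rose 3.16-fold in 3-44 (1.66 ± 0.30, adjusted p = 0.00289) and 6.26-fold in shRNA3T (2.65 ± 0.30, adjusted p = 3.43e-05). Between shRNA3T and 4-18 the difference was 14.9-fold (adjusted p = 4.25e-07).

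*Fgb* encodes the Bβ chain. It read 14.52, 14.41, 14.52 and 14.11 in CN-10, 13.78, 13.57 and 13.80 on the 3 arrays of 4-18 left after a spot with an outlier flag was set aside, 14.77, 15.26, 15.20 and 14.97 in 3-44, and 15.68, 15.13, 15.60 and 15.80 in shRNA3T. The order of the group means was that of *Fga*, with an overlap only between 3-44 and shRNA3T. *Fgb* rose 2.24-fold in shRNA3T (1.16 ± 0.15, adjusted p = 0.00015), while 3-44 (0.66 ± 0.15, adjusted p = 0.0147) and 4-18 (-0.68 ± 0.16, adjusted p = 0.00755) passed the limit on p but not the fold limit. A further *Fgb* probe, well above background on 8 of 16 arrays, gave 0.32 in shRNA3T, 0.06 in 3-44 and -0.18 in 4-18. With the mean of both probes the difference in shRNA3T was 0.74, short of 2-fold, with an adjusted p of 0.000637 over the arrays where both probes were measured. Its adjusted p was 0.563 when 4-18 replicate 4, left with the dim probe alone, was kept.

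*Fgg*, which encodes the γ chain, was at 14.57 ± 0.20 (SD, n = 4) for CN-10, 14.06 ± 0.49 for 4-18, 14.98 ± 0.23 for 3-44, and 15.50 ± 0.18 for shRNA3T. It was not called against CN-10, its largest difference being 0.93 ± 0.20 in shRNA3T (adjusted p = 0.00572). Without shRNA3T replicate 2 that value was 1.01 and passed both limits. *Fgg* was called between 4-18 and shRNA3T, 2.72-fold lower in 4-18 (adjusted p = 9.65e-05). The sign of *Fgg* in 4-18 depended on the scaling, at -0.52 here and 0.02 with the processed signal scaled by its 75th percentile. *Fga* and *Fgb* kept their signs in all 3 groups under each of the 41 alternatives run.

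**Figure D3:**
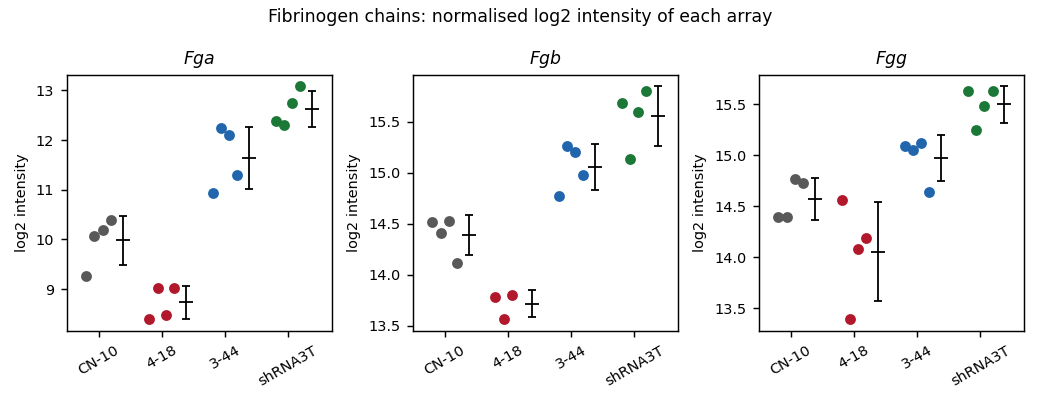
Each point is 1 array, as normalized log2 intensity of the fibrinogen chain genes *Fga*, *Fgb* and *Fgg* in CN-10 (gray), 4-18 (red), 3-44 (blue) and shRNA3T (green), with the mean and SD of the group beside the points. Group means rise from 4-18 over CN-10 and 3-44 to shRNA3T in each panel, from 8.73 to 12.63 for *Fga*.

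In the protein C system, *Proc* encodes protein C, which inactivates factors V and VIII. Its mean was 9.90 ± 0.13 (SD, n = 4) for CN-10, 8.92 ± 0.28 for 4-18, 10.17 ± 0.26 for 3-44, and 9.21 ± 0.12 for shRNA3T. The value in 4-18 was just short of 2-fold (-0.98 ± 0.14, adjusted p = 0.000119), and leaving out CN-10 replicate 1 (-1.04), 4-18 replicate 2 (-1.06) or 4-18 replicate 4 (-1.03) took it past the limit. *Proc* was 2.38-fold lower in 4-18 than in 3-44 (adjusted p = 1.4e-05). *Pros1*, the gene of protein S, lay between 8.18 ± 0.21 and 8.65 ± 0.29 in the 4 groups and was not called.

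Of the fibrinolysis genes, *Plg* and *Cpb2* were called. *Plg*, read by 10 spots on each array, encodes plasminogen. It read 13.39, 13.37, 13.25 and 13.28 in CN-10, 12.48, 12.48, 12.44 and 12.20 in 4-18, 13.05, 12.98, 12.93 and 13.11 in 3-44, and 12.15, 12.11, 12.07 and 12.08 in shRNA3T. Every silenced group lay below CN-10 without overlap. *Plg* fell 2.33-fold in shRNA3T (-1.22 ± 0.07, adjusted p = 6.51e-08). Smaller differences were found in 4-18 (-0.92 ± 0.07, adjusted p = 3.76e-07) and 3-44 (-0.30 ± 0.07, adjusted p = 0.0179). Its other probe, well above background on 4 of 16 arrays, gave -0.07, 0.14 and 0.04 in 4-18, 3-44 and shRNA3T, and with the mean of both probes the call in shRNA3T was lost (-0.59, adjusted p = 2.37e-05).

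*Cpb2* encodes the carboxypeptidase that slows fibrinolysis by trimming fibrin. It read 8.04, 8.21, 8.09 and 7.59 in CN-10, 6.92, 6.69, 7.04 and 7.17 in 4-18, 7.69, 7.47, 7.85 and 7.36 in 3-44, and 7.74, 6.91, 7.42 and 7.68 in shRNA3T. Only 4-18 was without overlap with CN-10. *Cpb2* fell 2.04-fold in 4-18 (-1.03 ± 0.18, adjusted p = 0.000754), a call lost without CN-10 replicate 2 (-0.95), CN-10 replicate 3 (-0.99) or 4-18 replicate 2 (-0.94). The call also depended on the scaling and the fit. The background-corrected signal scaled by its 75th percentile gave -0.26 (adjusted p = 0.589), or -0.76 (adjusted p = 0.0157) without 4-18 replicate 4, and scaling by the median gave -0.73 (adjusted p = 0.0177). It was also lost with the deposited values as given (-0.94, adjusted p = 0.131), with array weights (-0.99) and without the first replicate of all 4 groups (-0.99). The processed signal kept it at -2.03 (adjusted p = 0.00137) and also gave a call in shRNA3T, at -1.53 (adjusted p = 0.0174) against -0.55 here. *Plat*, which encodes tissue plasminogen activator, lay between 11.64 ± 0.21 and 12.06 ± 0.25, and *Plau*, the gene of urokinase, had no array well above background.

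**Figure D4:**
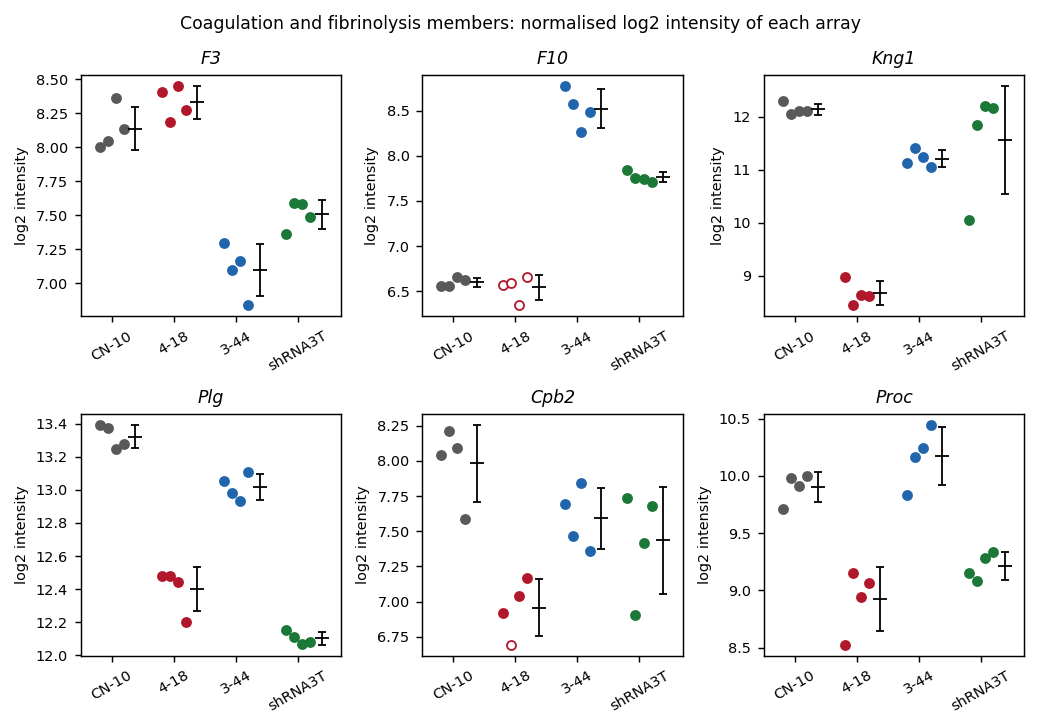
Each point is 1 array, as normalized log2 intensity of *F3*, *F10*, *Kng1*, *Plg*, *Cpb2* and *Proc* in the 4 groups, open where the probe was not well above background, with the mean and SD beside the points. *F10* separates both shRNA3 groups from CN-10 and 4-18, and *Kng1* in 4-18 lies between 8.44 and 8.98.

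Complement can be started by C1, an enzyme complex that includes the proteases C1r and C1s, or by mannose-binding lectin with the MASP proteases. *C2*, which encodes the protease part of the C3 convertase, read 10.699, 10.54, 10.48 and 10.25 in CN-10, 10.74, 10.43, 11.24 and 11.32 in 4-18, 12.06, 11.52, 11.83 and 11.81 in 3-44, and 11.73, 11.43, 11.33 and 11.31 in shRNA3T. All 8 arrays with shRNA3 lay above all 4 of CN-10. *C2* rose 2.48-fold in 3-44 (1.31 ± 0.18, adjusted p = 0.000326). In shRNA3T it was short of 2-fold at 0.95 ± 0.18 (adjusted p = 0.00254), reaching 1.02 without CN-10 replicate 1 and 1.00 without shRNA3T replicate 4. Its other probe, well above background on all 16 arrays, gave 0.93 in 3-44, 0.81 in shRNA3T and 0.79 in 4-18.

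*C1r*, *C1s*, *Masp2* and *Cfi* were higher in all 3 silenced groups with an adjusted p under 0.05 and a difference below 2-fold, and *Plg* was the only member lower in all 3 by that measure. Of all gene names, 1.15% were higher in all 3, 1.28% lower and 2.43% either. *C1r* was at 13.61 ± 0.07 in CN-10 and between 13.92 ± 0.14 and 14.08 ± 0.12 in the silenced groups. *C1s* was at 11.67 ± 0.11 in CN-10 and between 12.17 ± 0.15 and 12.36 ± 0.15. *Masp2* was at 6.70 ± 0.14 in CN-10 and reached 7.62 ± 0.17 in shRNA3T (0.92 ± 0.14, adjusted p = 0.000449). With the deposited values as given, which were not scaled between arrays, the differences in 4-18 were -0.42 for *C1r*, -0.18 for *C1s* and -0.05 for *Cfi*, none passing the test, and scaling by the median gave -0.18 for *C1r*. With the processed signal *C1r* was at 0.09 in shRNA3T (adjusted p = 0.695) and had an adjusted p of 0.0523 in 3-44, and *C1s* was at 0.21 in 4-18 (adjusted p = 0.24). An adjusted p under 0.05 in all 3 groups with 1 sign was kept by *C1r* in 29 of 41 alternatives, by *C1s* in 34, by *Cfi* in 31, by *Masp2* in 36 of 40 and by *Plg* in 22 of 41.

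*Mbl2* encodes mannose-binding lectin. It averaged 10.63 ± 0.19 (SD, n = 4) for CN-10, 9.85 ± 0.10 for 4-18, 10.92 ± 0.07 for 3-44, and 10.06 ± 0.15 for shRNA3T. A call was made between the clones, *Mbl2* being 2.10-fold lower in 4-18 (adjusted p = 2.1e-06). *Masp1* was at 7.80 ± 0.44 in CN-10 and 7.03 ± 0.18 in 4-18 (-0.77 ± 0.20, adjusted p = 0.0107), a difference of 0.05 under scaling by the 75th percentile and of -0.39 with that scaling and without 4-18 replicate 4. With the processed signal it was -1.18 (adjusted p = 0.00922), a call. Its other 3 probes were dimmer and gave values between -0.27 and 0.11 in 4-18, and of the 2 *Masp2* probes the dimmer one gave 0.21 in 4-18, 0.08 in 3-44 and 0.31 in shRNA3T.

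*C3*, the gene of the protein on which all routes of complement meet, was called in 4-18. It read 14.30, 14.14 and 14.03 on the 3 CN-10 arrays left after a spot with an outlier flag was set aside, 11.96, 11.29, 12.42 and 12.18 in 4-18, 13.48, 14.19, 14.11 and 13.85 in 3-44, and 14.99, 14.74, 14.90 and 14.999 in shRNA3T. The 4-18 arrays lay below all others and the shRNA3T arrays above all others. *C3* fell 4.58-fold in 4-18 (-2.19 ± 0.22, adjusted p = 7.07e-06). The value in shRNA3T was 0.75 ± 0.22 (adjusted p = 0.0436) and that in 3-44 was -0.25 ± 0.22 (adjusted p = 0.62). Compared directly, 4-18 was 3.85-fold below 3-44 (adjusted p = 1.21e-05) and 7.70-fold below shRNA3T (adjusted p = 3.16e-07). *Cfb*, which encodes factor B of the alternative pathway, ranged between 6.68 ± 0.23 and 7.16 ± 0.48 and was not called, and *Cfd*, the gene of factor D, was well above background on 1 array.

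*C5* encodes the component whose cleavage starts the pore. It read 10.10, 10.26, 10.20 and 10.22 in CN-10, 12.24, 12.39, 12.14 and 12.55 in 4-18, 8.56, 9.01, 8.79 and 8.71 in 3-44, and 11.12, 11.14, 11.15 and 11.50 in shRNA3T. No pair of groups overlapped. *C5*, read by 10 spots on each array, rose 4.39-fold in 4-18 (2.14 ± 0.12, adjusted p = 5.91e-09) and 2.05-fold in shRNA3T (1.03 ± 0.12, adjusted p = 2.77e-05), and fell 2.68-fold in 3-44 (-1.42 ± 0.12, adjusted p = 2.05e-06). Both clones thus stood 11.8-fold apart (adjusted p = 3e-11), and 3-44 was 5.50-fold below the pool that carries the same shRNA3 plasmid (adjusted p = 2.77e-08). The call in shRNA3T was lost without shRNA3T replicate 4 (0.94). For each of these differences the two-sided exact permutation p was 0.0286, the smallest that 4 arrays against 4 can give.

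*C9* encodes the subunit that polymerizes into the pore. It read 8.09, 7.91, 8.07 and 7.61 in CN-10, 7.38, 6.74, 7.43 and 7.56 in 4-18, 8.95, 9.07, 8.92 and 8.26 in 3-44, and 9.58, 9.26, 9.36 and 9.50 in shRNA3T. The 4-18 arrays lay below CN-10 and both shRNA3 groups above it. *C9* rose 2.83-fold in shRNA3T (1.503 ± 0.19, adjusted p = 9.12e-05). In 3-44 it was at 0.88 ± 0.19 (adjusted p = 0.01), reaching 1.06 without 3-44 replicate 4, and in 4-18 at -0.64 ± 0.19 (adjusted p = 0.0238). That last value ran from -1.16 to 0.02 over the alternatives, with 0.02 under scaling by the 75th percentile (-0.44 when 4-18 replicate 4 was left out of it) and a call at -1.04 (adjusted p = 0.00168) with the processed signal.

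C8 is made of 3 chains. *C8g*, which encodes the γ chain, read 11.70, 11.20, 11.64 and 11.03 in CN-10, 10.13, 9.63, 10.67 and 9.56 in 4-18, 12.52, 12.26, 12.15 and 12.02 in 3-44, and 11.72, 11.79, 11.70 and 11.66 in shRNA3T. It fell 2.63-fold in 4-18 (-1.40 ± 0.21, adjusted p = 0.000192). The value in 3-44 was 0.85 ± 0.21 (adjusted p = 0.0231), with all 4 arrays above those of CN-10. *C8a*, the gene of the α chain, lay between 13.02 ± 0.22 and 13.50 ± 0.23 and was not called, its probes giving 0.32 and -0.13 in 4-18. *C8b*, the gene of the β chain, was at 7.30 ± 0.34 in CN-10 and was not well above background in 4-18 (at least 1.60-fold lower, adjusted p = 0.000458). Scaled by the 75th percentile, *C8b* was at 0.21 in 4-18 with all arrays and at -0.35 without replicate 4, while the processed signal gave calls in 4-18 and shRNA3T, at -2.16 and -1.43 with an adjusted p of 0.00086 and 0.0254. With the median or the deposited values as given, *C8a* turned to -0.18 and -0.43 in 4-18. *C6* was well above background on 1 array, 3-44 replicate 4, at 8.02.

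Of the regulators, both chains of C4b-binding protein, which is a cofactor in the breakdown of C4b and whose probes both lie on chromosome 13, were called with shRNA3. *C4bpa* read 6.82, 6.96, 6.86 and 6.97 in CN-10, 6.63, 7.002, 6.84 and 7.02 in 4-18, 7.99, 9.10, 8.70 and 8.30 in 3-44, and 8.47, 8.58, 9.46 and 9.18 in shRNA3T. The shRNA3 arrays all lay above the others, and 4-18 overlapped with CN-10. *C4bpa* rose 3.08-fold in 3-44 (1.62 ± 0.23, adjusted p = 0.000407) and 4.05-fold in shRNA3T (2.02 ± 0.23, adjusted p = 3.44e-05). *C4bpb* read 7.04, 6.80, 7.01 and 6.98 in CN-10, 6.94, 6.95, 6.998 and 7.14 in 4-18, 7.65, 7.71, 7.68 and 6.94 in 3-44, and 8.09, 7.83, 8.03 and 8.42 in shRNA3T. It rose 2.20-fold in shRNA3T (1.14 ± 0.16, adjusted p = 0.000176), and in 3-44, where 1 array lay among those of CN-10, it was at 0.54 ± 0.16 (adjusted p = 0.0476). In 4-18 it was 2.12-fold below shRNA3T (adjusted p = 0.000146), a call lost without shRNA3T replicate 4 (-0.98).

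*Vtn* encodes vitronectin, which binds the forming pore and keeps it out of membranes. It read 7.44, 7.52, 8.06 and 8.27 in shRNA3T and failed to reach well above background on the arrays of CN-10 (6.17, 6.13, 6.06 and 6.52) or 4-18 (6.32, 6.35, 6.50 and 6.27). In 3-44 it read 6.20, 6.94, 6.41 and 6.30, well above background on 1 array. Every shRNA3T array lay above all the others. *Vtn* was at least 2.74-fold higher in shRNA3T than in CN-10 (adjusted p = 4.49e-05). The bound takes, for each CN-10 array, the dimmest signal still well above background, or the probe's own where that is higher.

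*Cd59* encodes the membrane inhibitor of the pore. It read 10.96, 11.35, 11.53 and 10.92 in CN-10, 11.68, 12.25, 12.47 and 12.42 in 4-18, 10.58, 11.22, 11.47 and 11.08 in 3-44, and 11.97, 12.27, 12.32 and 12.37 in shRNA3T. Arrays of 4-18 and shRNA3T lay above those of CN-10, and 3-44 overlapped with CN-10. *Cd59* rose 2.02-fold in 4-18 (1.02 ± 0.21, adjusted p = 0.00199) and 2.06-fold in shRNA3T (1.04 ± 0.21, adjusted p = 0.00326). Both calls lay near the 2-fold limit. That in 4-18 was lost without CN-10 replicate 1 (0.94), CN-10 replicate 4 (0.93), 4-18 replicate 3 (0.93) or 4-18 replicate 4 (0.94), and that in shRNA3T without CN-10 replicate 1 (0.97), CN-10 replicate 4 (0.95) or shRNA3T replicate 4 (1.00). The value in 4-18 was 0.53 (adjusted p = 0.113) with the signal scaled by its median and 0.29 (adjusted p = 0.519) with the deposited values as given, which also ended the call in shRNA3T (1.03, adjusted p = 0.182). Between clones *Cd59* was higher in 4-18, with a log2 difference of 1.12 (adjusted p = 0.00103), and lower in 3-44 than in shRNA3T, at -1.15 (adjusted p = 0.00202). Both calls were lost without 3-44 replicate 1 (0.95 and -0.98) and with the deposited values as given (0.50 and -1.24, adjusted p of 0.389 and 0.0868), and the first also under scaling by the median (0.61). The accession of this probe belongs to the gene that RefSeq now names *Cd59b*.

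*Cfi*, which encodes factor I, the protease that inactivates C3b and C4b, was at 15.29 ± 0.07 (SD, n = 4) for CN-10, 15.91 ± 0.10 for 4-18, 15.91 ± 0.17 for 3-44, and 15.63 ± 0.06 for shRNA3T. Neither probe of *Cd55*, which encodes decay-accelerating factor, was well above background on any array.

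**Figure D5:**
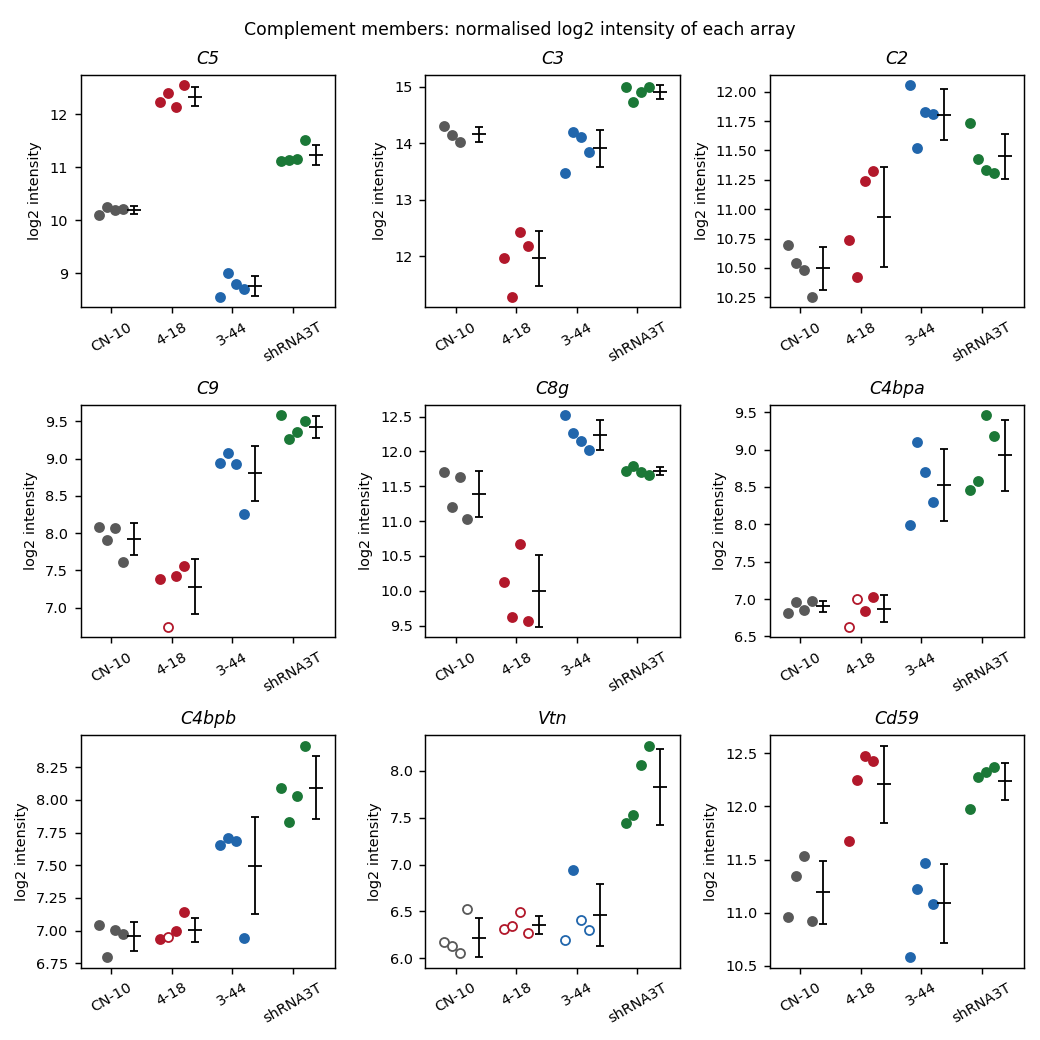
Each point is 1 array, as normalized log2 intensity of 9 complement genes in the 4 groups, open where the probe was not well above background, with the mean and SD beside the points. *C5* is high in 4-18 and low in 3-44, *C3* and *C8g* are low in 4-18, and *C4bpa* is high in both shRNA3 groups.

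Compared with each other, the clones 4-18 and 3-44 differed in 13 members, 3 higher (background 2.10%) and 10 lower in 4-18 (background 2.88%), while 4.98% of all gene names were called. Those higher in 4-18 were *F3*, *C5* and *Cd59*. With the background-corrected signal scaled by its 75th percentile, 8 were higher and 8 lower in 4-18, or 3 and 12 without 4-18 replicate 4. The processed signal scaled that way gave 4 higher and 12 lower. Clone 4-18 differed from shRNA3T in 12 members, 1 higher (background 1.86%) and 11 lower (background 2.70%), or 28.6% against 4.56% of all gene names, with *C5* the 1 that was higher. Here the 75th percentile scaling of the background-corrected signal gave 11 higher and 8 lower, or 3 and 9 without 4-18 replicate 4. The processed signal gave 1 higher and 10 lower. The groups made with the shRNA3 plasmid, 3-44 and shRNA3T, differed in 3 members, *C5*, *Cd59* and *Vtn*, all lower in 3-44 (7.14%), while 1.18% of all gene names were lower, 0.944% higher and 2.12% either. Of the 28 members brighter than the median gene name, 46.4% were called between the clones (background 9.32%), 39.3% between 4-18 and shRNA3T (background 8.72%) and 7.14% between 3-44 and shRNA3T (background 4.20%). Arrays did not overlap for 20 members between the clones (background 21.8%), 19 between 4-18 and shRNA3T (22.6%) and 16 between 3-44 and shRNA3T (22.1%), and an adjusted p under 0.05 at any fold was reached by 22 (22.5%), 17 (20.5%) and 11 (10.9%). *Fga* (-0.99, adjusted p = 0.0502) and *C3* (-0.9997, adjusted p = 0.00632) fell just short in that comparison. Without 3-44 replicate 2 both were called, at -1.19 and -1.09, and so they were without 3-44 replicate 3. Calls of 4-18 against shRNA3T depended on the scaling for *F10*, *C4bpb* and *Vtn*, which under the 75th percentile were at -0.16, -0.27 and -0.35, or -0.71, -0.76 and -0.93 without 4-18 replicate 4, and for *C5*, at 0.58 under scaling by the median and 0.37 with the deposited values as given. *Fgg* was at -0.92 there with the processed signal. Against 3-44, *C9* and *C4bpa* were at -0.90 and -0.86 under the 75th percentile. *Vtn* in 3-44 against shRNA3T had an adjusted p of 0.123 under that scaling and 0.138 with the deposited values as given. *F2* lay at -0.97 in 4-18 against 3-44 and at -0.98 against shRNA3T, just short of 2-fold, and reached -1.31 and -1.32 without 4-18 replicate 4.

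Other genes of these pathways, taken from a list of 51 of which 47 were on the array, were called in 9 cases in 4-18 (7 higher, 2 lower), 2 in 3-44 (both higher) and 8 in shRNA3T (7 higher, 1 lower). Of all gene names, 6.15%, 1.47% and 2.39% were called in these comparisons, while the 9, 2 and 8 of 47 are 19.1%, 4.26% and 17%. *Serpinc1*, the antithrombin gene, rose in all 3 groups, by 1.80 in 4-18, 2.23 in 3-44 and 1.80 in shRNA3T, with an adjusted p of 0.00599, 0.00457 and 0.0166. *Serpinf2*, which encodes the plasmin inhibitor, rose by 2.09, 1.74 and 2.74, with an adjusted p of 1.02e-08, 3.48e-07 and 2.16e-09. *Serping1*, the C1 inhibitor gene, rose by 3.13 in 4-18 (adjusted p = 0.000374) and by 1.93 (adjusted p = 0.0225) in shRNA3T. Its value in 3-44 was 0.97 (adjusted p = 0.336).

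Further calls in that list were *Habp2*, a protease that can activate factor VII, with 1.33 in 4-18 (adjusted p = 1.58e-05), and *Hpn*, a membrane protease well above background in 4-18 only, at least 3.22-fold higher in 4-18 (adjusted p = 9.74e-07). *Ggcx*, the carboxylase that matures vitamin K dependent factors, rose by 1.09 in 4-18 and 1.07 in shRNA3T (adjusted p of 0.017 and 0.032). Annexin A2 and S100A10 form a surface receptor for plasminogen, and their genes went apart in shRNA3T, with *Anxa2* at -1.21 (adjusted p = 0.023) and *S100a10* at 1.02 (adjusted p = 0.0456). The kininogen probes *Kng2* and *Kng1l1*, described above, were also called.

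Of 12 hepatocyte markers, 10 were well above background on all 16 arrays. Of these markers, 5 were called in 4-18 (1 higher, 4 lower), 2 in 3-44 and 2 in shRNA3T (all higher). These are 41.7%, 16.7% and 16.7% of the 12, against 6.15%, 1.47% and 2.39% of all gene names. *Ttr*, the transthyretin gene, rose in all 3, by 2.93 in 4-18, 2.84 in 3-44 and 2.39 in shRNA3T, with an adjusted p of 2.21e-05, 0.000125 and 0.000319. *Apoa1*, the gene of the main HDL protein, was at -2.12 in 4-18 (adjusted p = 1.5e-05) and at 2.18 in 3-44 (adjusted p = 5.47e-05), *Tf*, the transferrin gene, was at -1.50 in 4-18 (adjusted p = 0.0224), and *Alb*, the albumin gene, had differences of 0.10, -0.07 and 0.08 and was not called. Marker lists of macrophages (6 genes), endothelium (5), stellate cells or fibroblasts (7) and cholangiocytes (5) held 1 call, a lower *Des* in 4-18 (-1.17, adjusted p = 4.54e-05). Their summed intensities overlapped between CN-10 and the silenced groups, except that those of the stellate cell list were lower in 4-18 (987.3 to 1078) and 3-44 (1032 to 1126) than in CN-10 (1146 to 1263). Their part in the results was not tested, and in these cultures less RNA per cell and fewer cells expressing a gene cannot be told apart.

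The 75th percentile of spot intensity was 1614 to 1946 on the 4-18 arrays and 2328 to 3692 on the other 12, and the share of spots well above background ran from 53.1% to 74.3%. Replicate 4 of 4-18 had a median of 8.96 among the deposited log2 values, against 7.43 to 8.27 on the other 15 arrays, beside the higher 10th percentile given above. Every group filled its own slide and had its own scan, that of 4-18 on a different day, so group, slide and scan cannot be told apart. The number of arrays limits the precision of all values.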

How the data were processed

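Total RNA of H35 cells (200 ng per sample, 4 biological replicates per group per the labels) was hybridised to single-color Agilent rat arrays whose design uses the rn4 build. The authors scanned them with Feature Extraction 10.7.3.1, whose deposited spot intensity values are on a linear scale. The deposited table of the series, kept here as an alternative, held log2 values with the decimal point lost. Restored, they equalled the median signal after normexp correction with an offset of 50, unscaled between arrays (largest difference 3.99e-11).

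Mean spot intensities were corrected with normexp (offset 50), control spots (1377 of those beside 42877 gene spots) were dropped, arrays were quantile normalized, outlier-flagged spots were left out and the spots of a probe averaged (R 4.3.3, limma 3.58.1, data.table version 1.17.8). A linear model with 1 mean per group over 16 arrays was fitted to 30367 probes with empirical Bayes moderation. Adjusted p-values cover all probes. A gene with several probes (7 members) was read by the probe of highest mean intensity. No gene spot was saturated. A fold against a group not well above background is a bound. Scripts were tested on simulated data.

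The members and the lists of other genes were chosen with earlier results of these data known. Members called against CN-10 are given with every array, members called only between silenced groups with group means, and the rest by counts, ranges or role. Of other pathway genes, those called against CN-10 are named, except 1 that is not reported here. Accessions of 36 members' probes matched RefSeq (GRCr8), 34 of them under the same symbol. Exon positions were not analysed here. Alternatives covered background correction, scaling, filters, probe choice, the fit, limits and left-out replicates, and some were added after seeing the data.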

Additional observations from a re-analysis of the deposited data

Results flagged for a closer look

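*Fga* and *C5* differed from CN-10 in opposite directions in different silenced groups, and direct comparison of those groups tested the difference. For *Fga*, 4-18 lay below 3-44 by the log2 difference -2.91 (adjusted p = 5.94e-06, limma) and below shRNA3T by -3.90 (adjusted p = 4.25e-07). For *C5*, 4-18 lay above 3-44 by 3.56 (adjusted p = 3e-11), and 3-44 lay below shRNA3T by -2.46 (adjusted p = 2.77e-08).

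Of 170 groups of 4 arrays tested, 14 held 1 array far from the other 3 by Dixon's criterion, which chance gives in about 1 of 20 groups. In 4-18 these were *F9* on replicate 1 (6.37, others 6.19 to 6.21), *Cfd* on replicate 2 (7.42, others 6.35 to 6.50) and *Plg* on replicate 4 (12.20, others 12.44 to 12.48). In 3-44 they were *C8a* on replicate 1 (13.35, others 12.89 to 12.94) and, on replicate 4, *F9* (7.45, others 6.23 to 6.35), *C6* (8.02, others 6.18 to 6.41), *Fgg* (14.64, others 15.05 to 15.12) and *C4bpb* (6.94, others 7.65 to 7.71). In shRNA3T they were *Kng1* (10.04, others 11.85 to 12.20) and *C6* (6.44, others 6.23 to 6.25) on replicate 1, and *C5* on replicate 4 (11.50, others 11.12 to 11.15). *Pdrg1* was lowest on replicate 1 in 4-18 (11.57, others 13.25 to 13.34), in 3-44 (11.89, others 12.86 to 12.95) and in shRNA3T (12.39, others 12.90 to 12.97).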

How the results depend on the processing

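Of the 51 calls of a member in a comparison, 0 reversed among the 2074 values under 41 alternatives, 1985 kept the call and 89 lost it. Leaving out 1 array at a time gave 6 to 7 members called in 4-18 against CN-10, 5 to 6 in 3-44, 9 to 11 in shRNA3T, 12 to 15 in 4-18 against 3-44, 12 to 13 in 4-18 against shRNA3T and 3 to 5 in 3-44 against shRNA3T, the last reaching 5 without 3-44 replicate 2 or 3. In that order the counts were 15, 12, 17, 20 and 9 with a fold limit of 1.5 and 18, 15, 22, 22 and 11 with none, 4-18 against shRNA3T aside. With the background-corrected signal scaled by its 75th percentile, 18 members were called in 4-18 (14 higher) and 19 against shRNA3T (11 higher), the median of all probes moving by 0.86 and 0.97, and normexp by maximum likelihood, added after seeing the data, also gave 18 and 19. The processed signal scaled that way gave 13 in 4-18 and 6 in 3-44 against shRNA3T. An offset of 16 gave 5 in 3-44 against shRNA3T. The deposited values as given gave 11 in 4-18 (16 without 4-18 replicate 4), 6 in shRNA3T and 1 in 3-44 against shRNA3T. With probes well above background on all 16 arrays, which keeps 21 members, 5 were called in shRNA3T and 7 in 4-18 against shRNA3T.

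Values reversed for members not called in the comparison concerned, all but *F10* below the median signal, and all in 4-18 under both normexp forms scaled by the 75th percentile, by default and by maximum likelihood. Against CN-10 they were 1.19 and 1.19 for *F9*, 1.05 and 1.04 for *F10*, 1.21 and 1.20 for *F11*, 1.17 and 1.16 for *Plau*, and 1.28 and 1.27 for *Cd55*. Against 3-44 they were 1.12 and 1.10 for *F7*, 1.10 and 1.09 for *F13b*, and 1.09 and 1.08 for *Plau*. Against shRNA3T they were 1.33 and 1.31 for *F9*, 1.28 and 1.27 for *F11*, 1.30 and 1.29 for *Plau*, 1.36 and 1.35 for *C6*, and 1.31 and 1.29 for *Cd55*. After background correction the 10th percentile of 4-18 replicate 4 was 8.64 on the log2 scale, against 5.98 to 6.15 on the other 15 arrays. Leaving out that array, an alternative added after seeing the data, the same 13 differences were between 0.46 and 0.77 under both forms, 0 of them passed the fold limit, and the counts of members called were 5 in 4-18 against CN-10 and 12 against shRNA3T.

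With the replicate number as a block, the counts were 7, 6, 10, 13, 12 and 3, as without it. Deviations of same-numbered arrays correlated between -0.11 and 0.44 over 24 pairs, and those of other numbers between -0.40 and 0.25 over 72 pairs. Pairs of replicate 1 arrays all lay between 0.18 and 0.44. Of the 16 arrays, 7 correlated best with their own number. The main fit did not treat the numbers as pairs, and whether replicate 1 arrays shared a batch was not tested. Signal over background limits 18 members that were well above it on some arrays and 3 on none.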
